A study of Mus musculus with 6 samples.

Results

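Carboxylesterases are serine hydrolases that liver cells make in large amounts. The genes examined here are 10 members of the family that mouse liver expresses at a high level: Ces1b, Ces1c, Ces1d, Ces1e, Ces1f, Ces1g, Ces2a, Ces2e, Ces3a and Ces3b. They were taken by symbol from the deposited table of 29734 genes, and each symbol stood on a single line. All 10 also passed the filter on low counts, among 18931 genes tested. The libraries were made from liver of male mice that carried Prdx1 C52S (3 libraries, numbered 1, 2 and 4) or were wild type (WT; 3 libraries, numbered 6, 8 and 9). Both groups had started on a Western diet (WD) at 8 weeks of age and stayed on it for 20 weeks, so no group on another diet was available here. C52S replaces with serine the cysteine of peroxiredoxin 1 that reacts with peroxide. The labels give neither the strain, the number of mutant copies, nor whether each library came from a separate mouse. The p-values and SDs therefore measure the spread between these libraries, which may be partly technical. Values given below for livers are values of libraries.

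Carboxylesterases cut ester and amide bonds in fats, drugs and other compounds. Most are kept in the endoplasmic reticulum of hepatocytes by a short signal at the end of the protein, where several take part in the turnover of stored triacylglycerol and the loading of very low density lipoprotein (VLDL). Some rodent members lack that signal and are secreted into blood. Mice have many more of these genes than humans, and several carry older names such as triacylglycerol hydrolase and egasyn.

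The totals were 60326469 to 76164949 estimated counts in the Prdx1 C52S libraries and 72164981 to 74725684 in the WT libraries. Hepatocyte markers were high in every library, with 9 of 10 listed genes in the table and a summed level of 38940 to 41890 FPKM (fragments per kilobase of transcript scaled to depth) in Prdx1 C52S livers and 35260 to 37420 FPKM in WT livers. Prdx1 itself had 261, 238 and 242 FPKM in Prdx1 C52S livers against 236, 232 and 270.0 FPKM in WT livers. These ranges overlapped, and a level cannot check a change of 1 amino acid. The library WT 8 stood apart: its summed pericentral hepatocyte markers were 769 FPKM, against 2405 and 2520 FPKM in the other WT livers. Its scaling factor (trimmed mean of M-values, TMM) was 1.28 where the other 5 lay between 0.883 and 1.04. Fold changes of the members are also given without it where that moved them by over 1.5 times or past the threshold. The same holds for genes named from the pathway lists, Pon1 apart.

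The last codons of the coding sequences separate the members that end in the endoplasmic reticulum retention signal from those that do not. The lines give the final 10 codons and the stop codon of each member, read 5′ to 3′ on the gene's strand from GENCODE M21 transcripts on GRCm38, with the last 4 codons before the stop in capitals. Capitals that read histidine, any residue, glutamate, leucine hold the signal in its common mouse form.
Ces1b (chr8:93056887-93056919, minus strand): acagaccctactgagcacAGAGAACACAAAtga
Ces1c (chr8:93099165-93099197, minus strand): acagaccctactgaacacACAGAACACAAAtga
Ces1d (chr8:93166255-93166287, minus strand): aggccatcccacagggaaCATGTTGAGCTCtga
Ces1e (chr8:93201404-93201436, minus strand): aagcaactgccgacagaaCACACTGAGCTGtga
Ces1f (chr8:93256429-93256461, minus strand): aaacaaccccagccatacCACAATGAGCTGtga
Ces1g (chr8:93302905-93302937, minus strand): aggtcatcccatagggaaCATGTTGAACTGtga
Ces2a (chr8:104741384-104741416, plus strand): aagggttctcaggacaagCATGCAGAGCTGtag
Ces2e (chr8:104933682-104933714, plus strand): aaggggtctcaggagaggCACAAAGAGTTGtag
Ces3a (chr8:105058071-105058103, plus strand): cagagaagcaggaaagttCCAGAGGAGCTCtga
Ces3b (chr8:105093230-105093262, plus strand): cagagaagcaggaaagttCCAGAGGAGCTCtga
The pattern was present in 6 members (Ces1d, Ces1e, Ces1f, Ces1g, Ces2a and Ces2e) and absent from 4. Ces1b and Ces1c end in different codons altogether, and Ces3a and Ces3b share 1 identical ending with proline codons in place of histidine.

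All members lie on chromosome 8, in a pair of blocks. The 6 Ces1 members occupy 280.6 kb on the minus strand (chr8:93056728-93337308), and the 4 Ces2 and Ces3 members occupy 359.9 kb on the plus strand (chr8:104734003-105093929). Between the blocks are 113 other genes of the table. Ces1d and Ces1e are the closest neighbours, 3.38 kb apart. Coding sequences were 73.6% to 95.3% identical in the 17 pairs within a subfamily and 62.0% to 64.1% identical in the 28 pairs between subfamilies. Ces3a and Ces3b were the most alike at 95.3%, and Ces1b and Ces1c followed at 91.2%.

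How reads shared by such similar genes were assigned is not given in the sources used here. A window of 150 bases, the length of 1 read, was never shared with another gene's transcript in Ces2e or any of the 6 Ces1 members. It was shared in 4.03% of positions in Ces2a, all with Gm7208, in 2.37% in Ces3a and in 2.00% in Ces3b, each of these last with the other. Only exact matches were counted. For windows of 75 bases the share was 18.3% in Ces3a, 15.4% in Ces3b, 14.8% in Ces2a, 6.73% in Ces1c and 4.5% in Ces1b. It was 1.05% in Ces1e, 0.343% in Ces2e and 0% in Ces1d, Ces1f and Ces1g. Ces1d overlaps Gm45909 on the same strand (mean 2.64 FPKM), and Ces3a overlaps Gm45724 on the other strand (mean 16.9 FPKM); whether counting used the strand is not given either.

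Per length of transcript, the members spanned a wide range of levels. Ces1c was the highest of them and ranked 80 among all genes by mean FPKM over the 6 libraries, Ces3a ranked 104 and Ces1d 205, while Ces1b was the lowest of the 10 at rank 1727. The order of mean levels was Ces1c, Ces3a, Ces1d, Ces1f, Ces1g, Ces2e, Ces3b, Ces1e, Ces2a and Ces1b. The steps from Ces3a to Ces1d, from Ces1d to Ces1f and from Ces2a to Ces1b separated the genes in all 6 libraries with ranges that were apart in both groups. Ces1c was above Ces3a in all 6 libraries, with ranges apart in Prdx1 C52S livers and overlapping in WT livers. The neighbours Ces1f and Ces1g, and likewise Ces3b and Ces1e, overlapped in both groups. The other 3 steps were apart in Prdx1 C52S livers and overlapped in WT livers.

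The comparison of Prdx1 C52S with WT livers asks which transcripts differ with the peroxiredoxin change on a shared diet. Mean FPKM was higher in Prdx1 C52S livers for 9 of the 10 carboxylesterases, by 1.27-fold (Ces1c and Ces3a) to 1.81-fold (Ces1e), and lower for Ces3b; the log2 fold change was positive for the same 9, beside 47.0% of all genes tested. No member passed an adjusted p of 0.05 in edgeR's quasi-likelihood test, where 0.0% of all genes did. At an unadjusted p under 0.05, 7 members were higher and 0 lower, beside 11.5% of all genes tested higher and 14.8% lower. The members' median log2 fold change was 0.73, and that of all genes was -0.03. With WT 8 left out, 6 members passed as higher (Ces1c, Ces1e, Ces1f, Ces1g, Ces2a and Ces2e), beside 2.7% of all genes higher and 1.94% lower. By the other tools run on all 6 libraries, DESeq2 called 7 members and limma's voom with library weights 6, all higher, beside 7.39% of all genes called higher and 9.1% lower by DESeq2, and 5.4% higher and 5.31% lower by voom.

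**Figure D1:**
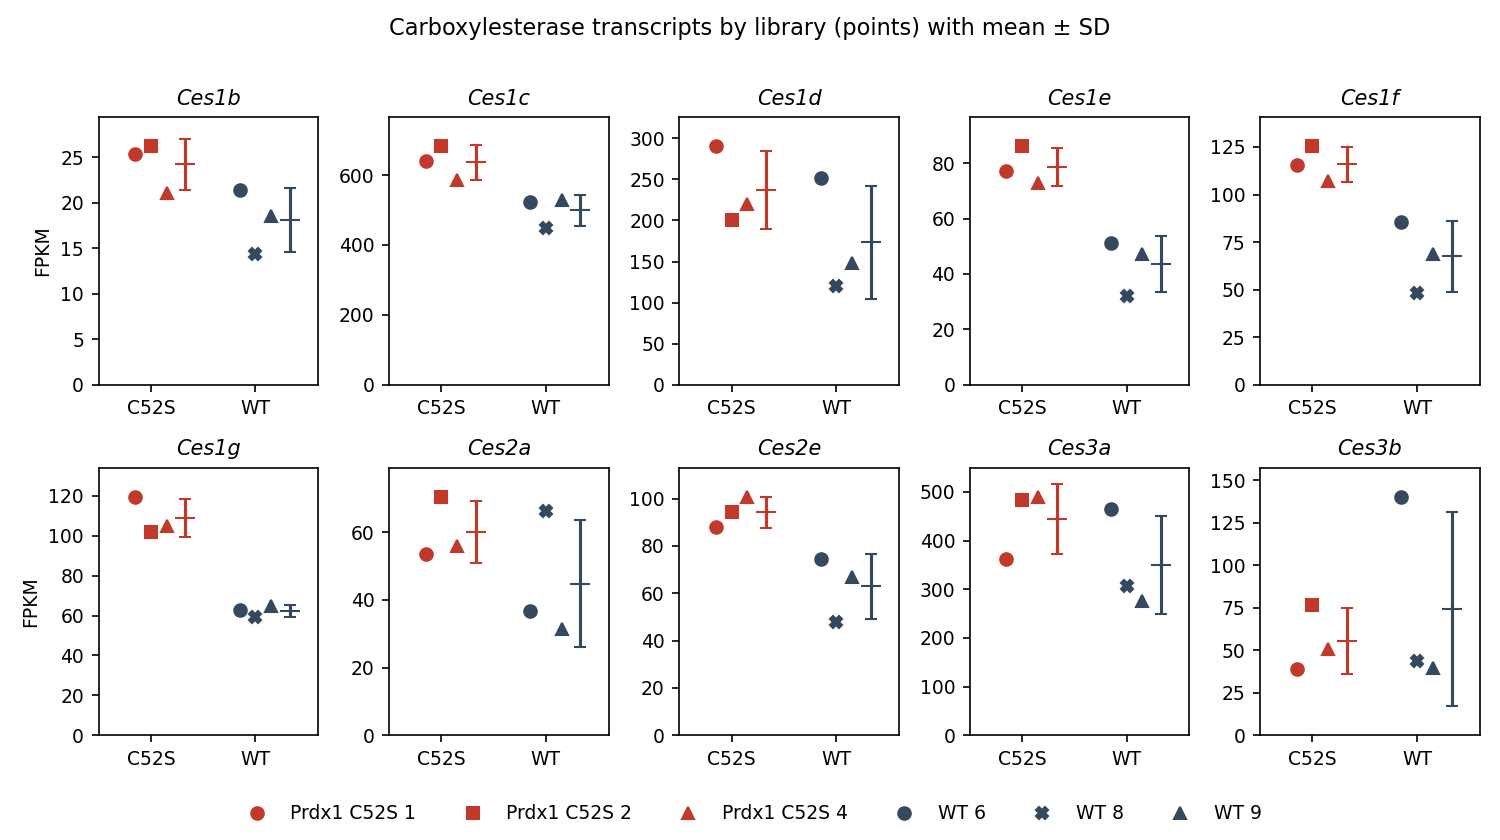
FPKM of each carboxylesterase (vertical axes from 0, own scale per gene) in 3 Prdx1 C52S libraries (red) and 3 WT libraries (dark blue). Points are libraries and bars mean ± SD. Groups did not overlap for Ces1c, Ces1e, Ces1f, Ces1g and Ces2e; in Ces2a the WT library 8 and in Ces3b the WT library 6 lay far above the other WT libraries.

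Ces1c encodes the main carboxylesterase of mouse plasma. It had 640.5, 684 and 585 FPKM in Prdx1 C52S livers against 521, 449 and 529 FPKM in WT livers. The groups did not overlap, with a mean of 636 ± 49.6 FPKM in Prdx1 C52S and 499.8 ± 44.5 FPKM in WT (SD, n = 3 each). edgeR put Ces1c at a log2 fold change of 0.62 (SE 0.20, adjusted p = 0.122), and at 0.47 (SE 0.10; adjusted p = 0.0430) without WT 8. Ces1b, its closest relative and neighbour, was far lower, at 25.4, 26.3 and 21.0 FPKM in Prdx1 C52S livers against 21.4, 14.4 and 18.6 FPKM in WT livers. Prdx1 C52S 4 lay just below WT 6, so the groups overlapped. edgeR put Ces1b at a log2 fold change of 0.68 (SE 0.22, adjusted p = 0.123), and it did not pass without WT 8 either (adjusted p = 0.0706).

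Among the Ces1 members with the retention signal, Ces1g had the smallest p of the 10. Ces1g, also known as esterase-x, is a lipid hydrolase whose loss in mice raises liver fat. It had 119.6, 102 and 105 FPKM in Prdx1 C52S livers against 62.9, 59.1 and 64.8 FPKM in WT livers. All 3 Prdx1 C52S values lay well above the closely grouped WT values, 109 ± 9.49 FPKM in Prdx1 C52S against 62.2 ± 2.90 FPKM in WT (SD, n = 3 each). edgeR gave Ces1g a log2 fold change of 1.08 (SE 0.16) with an adjusted p of 0.0553, the smallest adjusted p in the whole table and one shared by 65 genes. Without WT 8 it was 0.96 (SE 0.09; edgeR adjusted p = 0.00743).

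Ces1e, known as egasyn, holds β-glucuronidase in the endoplasmic reticulum. It had 77.1, 86.3 and 72.8 FPKM in Prdx1 C52S livers against 51.2, 32.0 and 47.2 FPKM in WT livers. The groups were apart, and WT 8 was the lowest library. Its edgeR log2 fold change of 1.11 (SE 0.25, adjusted p = 0.0842) was the highest of the 10, and came to 0.87 (SE 0.11; adjusted p = 0.0126) without WT 8.

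Ces1f, a second triacylglycerol hydrolase, followed the same order of libraries. Its values were 115, 126 and 107 FPKM in Prdx1 C52S livers against 85.6, 48.2 and 68.7 FPKM in WT livers, again without overlap and with WT 8 lowest. For Ces1f edgeR gave 1.04 on the log2 scale (SE 0.28, adjusted p = 0.0986), and 0.78 (SE 0.12; adjusted p = 0.0232) without WT 8.

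Ces1d is the triacylglycerol hydrolase of the endoplasmic reticulum that provides lipid for VLDL. It had 291, 200.1 and 220.5 FPKM in Prdx1 C52S livers against 251, 119.9 and 149 FPKM in WT livers. WT 6 lay above a pair of the Prdx1 C52S libraries, so that the groups overlapped. For Ces1d edgeR gave 0.70 on the log2 scale (SE 0.34, adjusted p = 0.235), and it did not pass without WT 8 (0.44; adjusted p = 0.405). Without WT 6 its value was 1.13.

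Ces2a is an endoplasmic reticulum lipase for triacylglycerol and diacylglycerol, and Ces2e is its closest relative here at 83.3% coding identity. Ces2e had 87.8, 94.3 and 101 FPKM in Prdx1 C52S livers against 74.6, 47.8 and 66.8 FPKM in WT livers, with no overlap. edgeR put Ces2e at a log2 fold change of 0.84 (SE 0.24, adjusted p = 0.107), and at 0.61 (SE 0.10; adjusted p = 0.0266) without WT 8. Ces2a had 53.6, 70.5 and 55.7 FPKM in Prdx1 C52S livers against 36.6, 66.3 and 31.4 FPKM in WT livers. Its groups overlapped through WT 8 alone, which was the highest WT library for Ces2a and the lowest for Ces2e. The edgeR estimate for Ces2a was 0.76 on the log2 scale (SE 0.22, adjusted p = 0.108) with all libraries and 1.01 (SE 0.15; adjusted p = 0.0207) without WT 8.

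The groups overlapped in both Ces3 members, which are the most alike in sequence. Ces3a had 362, 482 and 490.4 FPKM in Prdx1 C52S livers against 464, 307 and 276 FPKM in WT livers, with Prdx1 C52S 1 below WT 6 and the other libraries apart. For Ces3a edgeR gave 0.62 on the log2 scale (SE 0.28, adjusted p = 0.203), and 0.95 without WT 6. Ces3b had 38.8, 76.6 and 51.0 FPKM in Prdx1 C52S livers against 140.5, 43.5 and 39.3 FPKM in WT livers. The mean was 55.5 ± 19.2 FPKM in Prdx1 C52S against 74.4 ± 57.2 FPKM in WT (SD, n = 3 each), with WT 6 far above the other 5 libraries. For Ces3b edgeR gave -0.17 on the log2 scale (SE 0.57, adjusted p = 0.872) with all libraries, 0.76 without WT 6 and -0.50 without WT 8.

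By subfamily, the median log2 fold change was 0.87 for the 6 Ces1 members, 0.80 for the 2 Ces2 members and 0.23 for the 2 Ces3 members. An unadjusted p under 0.05 was reached by 5 Ces1 members, both Ces2 members and 0 Ces3 members. In FPKM, 5 members had groups that did not overlap, all higher in Prdx1 C52S, beside 6.09% of all genes tested higher and 36.7% lower. With TMM scaling, this was 7 members, beside 16.9% of all genes higher and 18.0% lower. TMM factors were lower in the Prdx1 C52S libraries (0.883 to 0.92) than in the WT libraries (1.03 to 1.28), so genes level in FPKM come out above 0 in the fit. With library totals alone, the members' median was 0.43 and that of all genes -0.34, so the members stood 0.77 above all genes, against 0.76 with TMM. The coefficient of variation of FPKM was smaller in Prdx1 C52S than in WT livers for 9 of 10 members. The exception was Ces1g with 8.72% in Prdx1 C52S livers against 4.66% in WT livers. The share of all genes with this order was not computed. Over all genes tested, edgeR's common biological variation was 0.31. It was 0.245 without WT 8, and 0.347 to 0.348 with a Prdx1 C52S library left out.

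**Figure D2:**
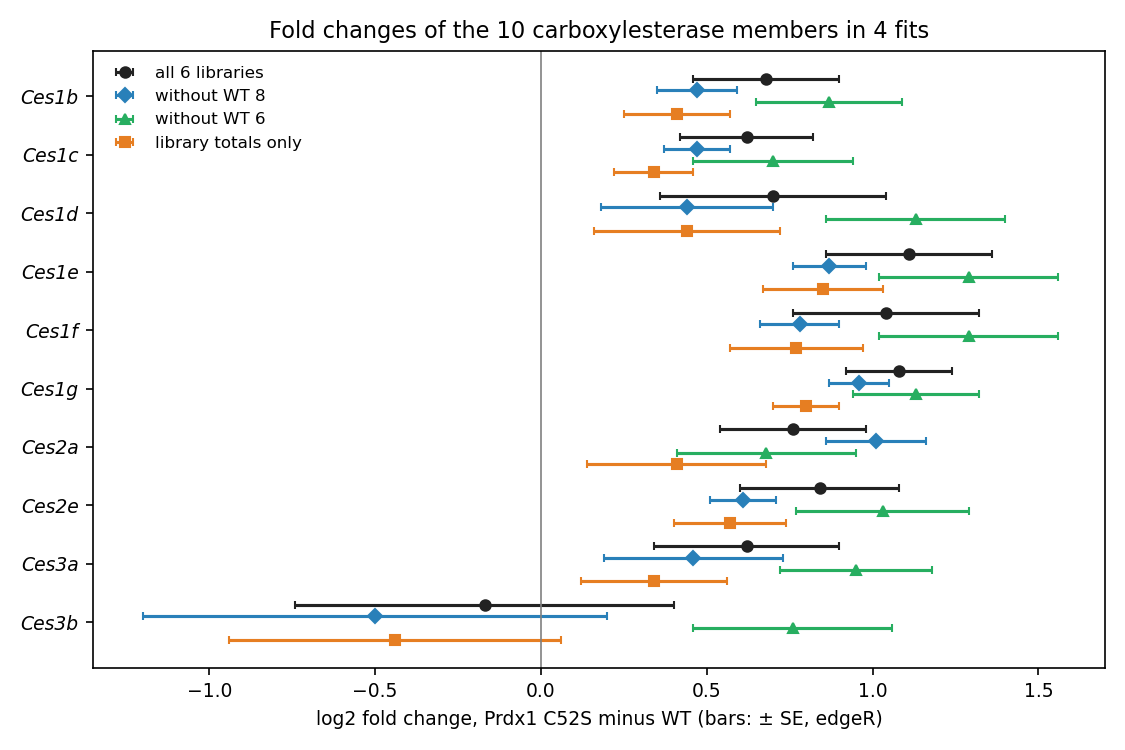
Log2 fold change, Prdx1 C52S minus WT, of each carboxylesterase (rows) from edgeR with all 6 libraries, without WT 8, without WT 6 and with library totals in place of TMM; bars are ± SE. Of the 10 members, Ces3b alone lies on both sides of 0, from -0.50 without WT 8 to 0.76 without WT 6.

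Promoter sequence was available for 7 members as RefSeq windows on GRCm38.p6, with 8 windows in all because Ces1b has a pair of starts; Ces1d, Ces1f and Ces3a are named only. The windows shown are the 250 bases before the RefSeq start of Ces1c, the most abundant member, and of Ces1g, the member with the smallest p. In the deposited coordinates Ces1g reaches to 93337308, past its RefSeq start. The part of its window nearest that start, with the TATA box and the later CCAAT match, thus lies inside the gene as deposited. Capitals mark the form TTGCNNAA of the C/EBP site, the CCAAT box and the TATA box TATAAA on either strand.
Ces1c (chr8:93131284-93131533, minus strand): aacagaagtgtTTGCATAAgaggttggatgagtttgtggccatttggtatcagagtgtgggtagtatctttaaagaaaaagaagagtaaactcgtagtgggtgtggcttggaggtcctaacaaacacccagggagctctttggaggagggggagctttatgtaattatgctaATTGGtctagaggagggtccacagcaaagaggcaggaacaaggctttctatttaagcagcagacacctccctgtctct
Ces1g (chr8:93337210-93337459, minus strand): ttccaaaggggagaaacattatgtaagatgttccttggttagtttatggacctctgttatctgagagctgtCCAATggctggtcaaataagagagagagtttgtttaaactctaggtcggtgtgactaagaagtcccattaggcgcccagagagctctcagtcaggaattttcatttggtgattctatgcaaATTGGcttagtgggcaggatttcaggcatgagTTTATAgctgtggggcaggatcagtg
The C/EBP form was found in 4 of the 7 members with a window (Ces1b, whose overlapping windows hold 1 shared match, Ces1c, Ces2a and Ces2e), and in 9.56% of the 32851 promoter windows of the reference. CCAAT was in 5 member windows (Ces1b, Ces1c, Ces1g, Ces2a and Ces3b) and in 33.8% of all windows. TATAAA was in 2 member windows (Ces1g and Ces3b) and in 12.4% of all. No member window held CAAAGTCCA (an HNF4A form, 0.384% of all windows), TGTTTAC (FOXA, 3.17%), TTCNNNGAA (STAT5, 7.02%), TGACNNNGC (NRF2, 10.2%) or the E-box CACGTG (6.02%), nor the direct repeat of AGGTCA spaced by 1 base (0.0335%), each searched on both strands. These are matches of letters, not binding sites. The Ces1c window was 84.4% identical to that of 1 Ces1b start. It was 56.0% identical to that of the other, which overlaps the first but is shifted along the chromosome. The Ces2a and Ces2e windows were 60.4% identical. By the same alignment, windows of members from different subfamilies were 46.0% to 53.6% identical. The Ces1 pairs not given above were 48.8% to 57.6% identical, which overlaps that range.

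The family as a whole took up a small share of the transcript pool. The 10 members summed to 1811, 1947 and 1809 FPKM in Prdx1 C52S livers against 1710, 1187 and 1290 FPKM in WT livers. All Prdx1 C52S sums lay above all WT sums, by little for WT 6. As a share of all FPKM, this was 0.461% ± 0.0161 in Prdx1 C52S and 0.366% ± 0.0650 in WT (SD, n = 3 each). The Ces1 members summed to 1201 ± 81.4 FPKM in Prdx1 C52S and 864 ± 136 FPKM in WT, and the Ces2 members to 154 ± 11.9 FPKM in Prdx1 C52S and 108 ± 8.50 FPKM in WT, both without overlap. The Ces3 members summed to 400.5, 559 and 542 FPKM in Prdx1 C52S livers against 605, 351 and 315 FPKM in WT livers, and overlapped. Ces1c alone made up 34.3% ± 1.69 of the family's FPKM in Prdx1 C52S and 36.4% ± 5.39 in WT (SD, n = 3 each). In bulk liver, fewer cells of a type and less RNA per cell cannot be told apart.

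**Figure D3:**
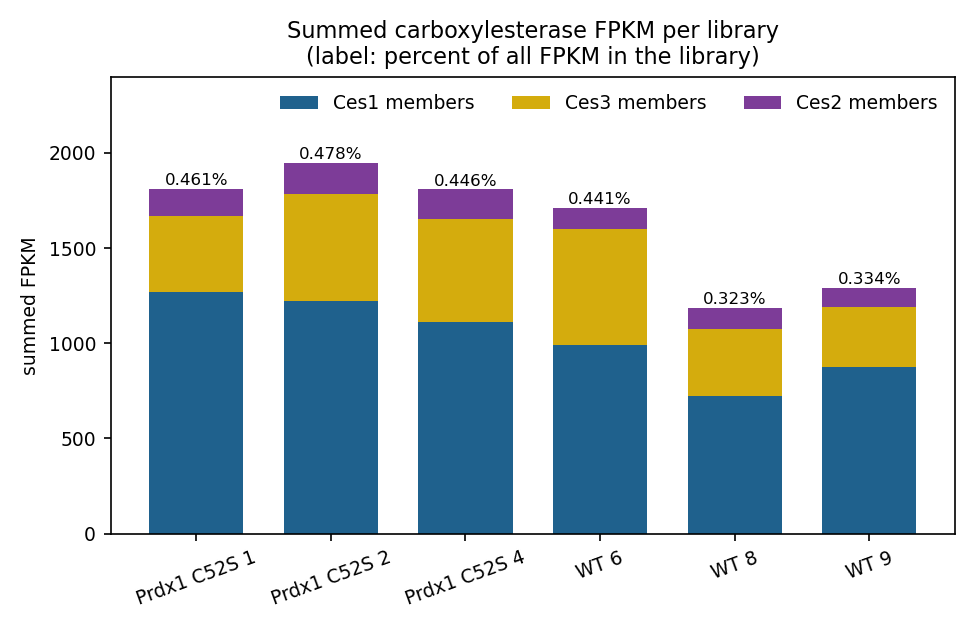
Summed FPKM of the carboxylesterases in each library, Prdx1 C52S left and WT right, stacked by subfamily from Ces1 at the base to Ces2 at the top; labels give the percent of all FPKM in that library. The Prdx1 C52S sums run from 1809 to 1947 FPKM and the WT sums from 1187 to 1710 FPKM.

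Ratios between chromosomal neighbours did not separate the groups. For 8 pairs of adjacent members within a block, the ratio of FPKM overlapped between groups in all 8, and exact two-sided permutation tests gave p of 0.3 to 1, with 0.8 the smallest after Benjamini-Hochberg adjustment over the 8. With 3 libraries a group, the smallest p this test allows is 0.1. Ces1e over Ces1f was the steadiest of them, at 0.668, 0.687 and 0.679 in Prdx1 C52S livers against 0.599, 0.665 and 0.687 in WT livers. Ces2a over Ces2e was 0.611, 0.748 and 0.553 in Prdx1 C52S livers against 0.491, 1.39 and 0.471 in WT livers, where WT 8 stood apart. Ces3a over Ces3b was 9.31, 6.30 and 9.61 in Prdx1 C52S livers against 3.31, 7.06 and 7.01 in WT livers, where WT 6 was lowest.

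The members' profiles were compared as TMM-scaled log2 CPM (counts scaled to a common depth) minus each gene's mean over the 6 libraries, with the root mean square (RMS) difference between genes as the measure of likeness. These profiles share their libraries and scaling, and the values describe 6 points. Ces1e and Ces1f were the most alike of the 45 pairs, with an RMS difference of 0.0685, and Ces1b and Ces1c followed at 0.120. Ces1g and Ces3b were the least alike at 0.853. WT 8 was the lowest library on this scale for 9 members, the exception being Ces2a at 0.05 above its own mean. In FPKM it was the lowest for 7 members. Its TMM factor of 1.28 lowers every scaled value of that library. The share of all genes that were lowest in WT 8 was not computed. Ces3b had the widest profile, from 1.24 above its mean in WT 6 to 0.76 below it in WT 8.

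**Figure D4:**
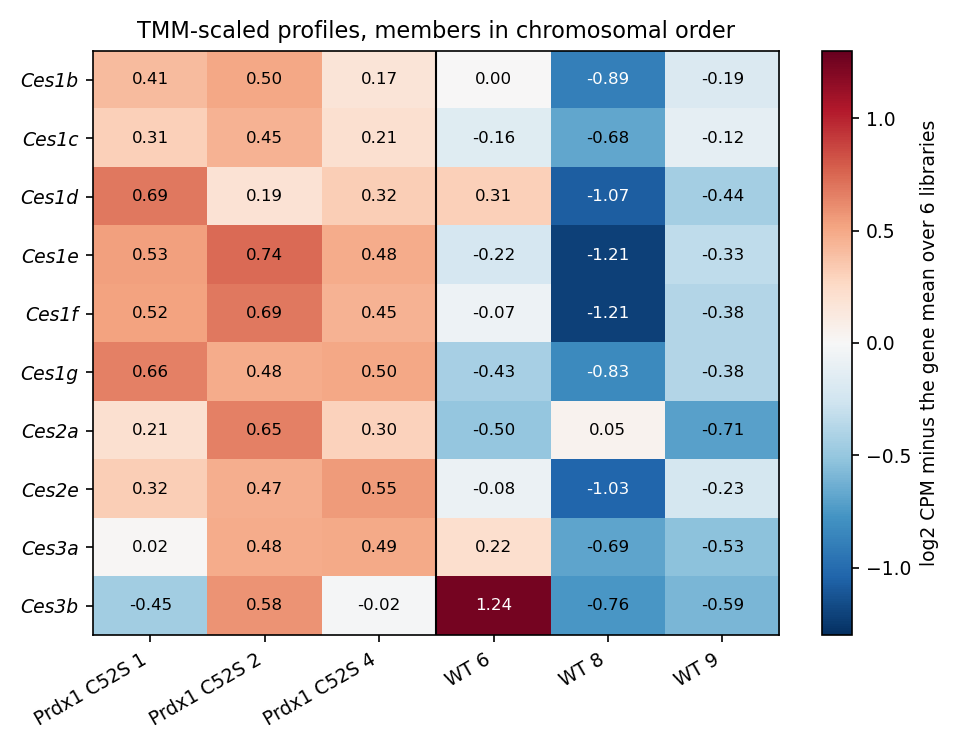
TMM-scaled log2 CPM of each member minus its mean over the 6 libraries, members down the page in chromosomal order, Prdx1 C52S libraries left of the line and WT libraries right of it; red is above and blue below the gene's mean. Ces1e and Ces1f have nearly the same row, and Ces2a is the only row in which WT 8 is not below the mean.

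Likeness in sequence and in profile did not run together for every pair. Within subfamilies the RMS difference had a median of 0.256 over 17 pairs (0.239 without WT 8), and between subfamilies 0.429 over 28 pairs (0.304 without WT 8). With all libraries the ranges overlapped, at 0.0685 to 0.528 within and 0.161 to 0.853 between subfamilies. The widest pairs between subfamilies were those with Ces3b, at 0.645 to 0.853. The pair Ces3a and Ces3b, the most identical in sequence, had a difference of 0.509 (0.556 without WT 8), the widest within a subfamily once WT 8 was left out. Much of this lay in WT 6, where Ces3b was 1.24 above its mean and Ces3a 0.22 above its own. Without WT 6 the edgeR log2 fold changes were 0.95 for Ces3a and 0.76 for Ces3b. The RMS difference without WT 6 was not computed. Ces2a and Ces2e differed by 0.528 with all libraries but by 0.239 without WT 8, and Ces1e and Ces2a by 0.568 with all libraries and 0.105 without it. Ces1e and Ces1f remained the most alike pair (0.0751) and Ces1g and Ces3b the least alike (0.933) without WT 8.

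**Figure D5:**
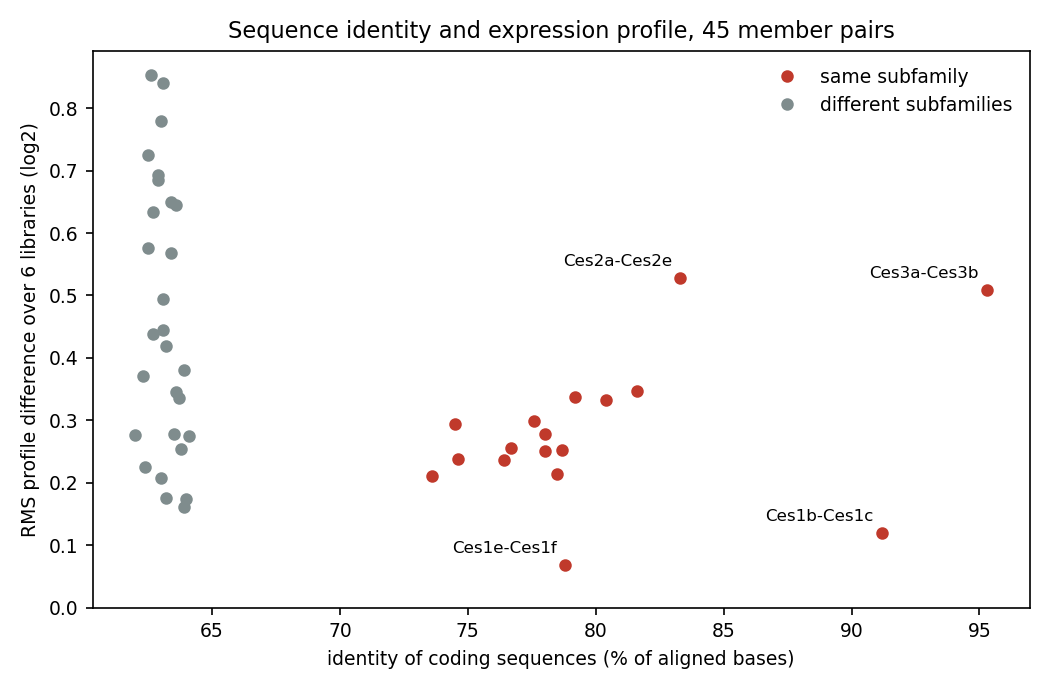
Percent identity of coding sequences (horizontal) against RMS difference of profiles over 6 libraries (vertical, log2) for the 45 member pairs, same subfamily in red and different subfamilies in grey. The pair Ces3a and Ces3b sits at 95.3% and 0.509, while Ces1e and Ces1f sit at 78.8% and 0.0685. In WT 6, Ces3b was 1.24 above its mean and Ces3a 0.22 above its own. Pairs share members and libraries.

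Among 11809 genes tested with a mean of at least 1 FPKM, the gene nearest in profile to each member was not a carboxylesterase for any of the 10. For Ces1c it was Aldh6a1, a mitochondrial aldehyde dehydrogenase, at an RMS difference of 0.0291. For the pair Ces1e and Ces1f these were Rmdn2 at 0.0606 and Zfp992 at 0.0596, a single gene lying nearer to Ces1e than Ces1f did. The nearest gene was Ube2e2 for Ces1b (0.0687), Pparg for Ces1d (0.0954) and Gm7329 for Ces1g (0.0597). It was Tgfbr3l for Ces2a (0.0869), Sfxn5 for Ces2e (0.0643), Enpp3 for Ces3a (0.0896) and Keg1 for Ces3b (0.240). Each of these was picked as the nearest of many genes over 6 libraries.

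Of the other 9 carboxylesterase genes listed, 8 were in the table, Ces5a was not analysed here, and 6 were tested. None passed in edgeR, and 2 were higher at an unadjusted p under 0.05, beside 11.5% of all genes tested. The median log2 fold change of the 6 was 0.41. Ces2c, which lies between Ces2a and Ces2e, had 31.0, 29.5 and 37.5 FPKM in Prdx1 C52S livers against 14.2, 10.4 and 19.9 FPKM in WT livers. Its groups were apart, with a log2 fold change of 1.39 (SE 0.30; edgeR adjusted p = 0.0819), and 1.13 (adjusted p = 0.0254) without WT 8. Ces2g had 14.4, 12.1 and 15.6 FPKM in Prdx1 C52S livers against 12.5, 15.5 and 13.4 FPKM in WT livers, which overlapped. For Ces2g edgeR gave 0.32 on the log2 scale (SE 0.11, adjusted p = 0.131) with TMM and 0.02 with library totals. The other 6 stayed at or below 0.614 FPKM in every library.

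Other liver esterases and lipases were read from a list of 18, of which 17 were tested. In edgeR 0 passed, and 8 were higher and 1 lower at an unadjusted p under 0.05. Of all genes tested, 11.5% were higher and 14.8% lower at that p. The median log2 fold change of the list was 0.47. Aadac, an endoplasmic reticulum deacetylase that also acts on lipid, had 264, 297 and 309 FPKM in Prdx1 C52S livers against 206, 183 and 205 FPKM in WT livers. The groups were apart (log2 fold change 0.83, SE 0.18; edgeR adjusted p = 0.0819), as they were for Bphl (0.77, SE 0.18) and Esd (0.71, SE 0.17). Pnpla2, the adipose triglyceride lipase that starts triacylglycerol breakdown at lipid droplets, lay the other way, at 17.1, 15.8 and 14.3 FPKM in Prdx1 C52S livers against 32.3, 25.6 and 28.0 FPKM in WT livers. For Pnpla2 edgeR gave -0.59 on the log2 scale (SE 0.17, adjusted p = 0.107). Without WT 8, 4 of these genes passed as higher (Aadac, Pon1, Esd and Bphl) and Pnpla2 as lower. Of all genes, 2.7% passed as higher and 1.94% as lower in that fit. The log2 fold change was then 0.69 for Aadac, 0.56 for Esd, 0.60 for Bphl and -0.75 for Pnpla2.

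Of 12 partners of carboxylesterases and genes of VLDL assembly, 0 passed in edgeR and 2 were higher at an unadjusted p under 0.05. This stood beside 11.5% of all genes tested. The 2 were Cideb and Mttp, both of which act in VLDL lipidation. Cideb had 102, 108 and 111 FPKM in Prdx1 C52S livers against 89.2, 68.0 and 97.9 FPKM in WT livers, without overlap, and a log2 fold change of 0.59 (SE 0.21; edgeR adjusted p = 0.143), or 0.39 without WT 8. Mttp had a log2 fold change of 0.52 (SE 0.22), which was 0.31 without WT 8 and 0.25 with library totals. P4hb, its partner subunit, had 0.46 (SE 0.21), and 0.18 with library totals. Gusb is the β-glucuronidase that egasyn holds. It had 9.50, 7.74 and 9.31 FPKM in Prdx1 C52S livers against 13.7, 12.7 and 13.9 FPKM in WT livers. These groups were apart in FPKM, opposite in direction to Ces1e, but overlapped with TMM scaling. In FPKM, 36.7% of all genes tested were lower without overlap. For Gusb edgeR gave -0.33 on the log2 scale (SE 0.15, adjusted p = 0.203), and -0.45 (adjusted p = 0.0492) without WT 8.

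Of 13 nuclear receptors and other factors known to control carboxylesterase genes, 0 passed in edgeR with or without WT 8. At an unadjusted p under 0.05, 3 were higher, beside 11.5% of all genes tested. The median log2 fold change was 0.23. Nr1i3, the receptor CAR, had 64.1, 60.3 and 53.9 FPKM in Prdx1 C52S livers against 31.1, 13.8 and 49.8 FPKM in WT livers. The groups were apart, with a log2 fold change of 1.14 (SE 0.48; edgeR adjusted p = 0.189) that moved to 1.69 without WT 9 and to 0.75 without WT 8. Nr0b2, the corepressor SHP, had a log2 fold change of 1.48 (SE 0.33; edgeR adjusted p = 0.0842), with 14.0, 25.8 and 16.9 FPKM in Prdx1 C52S livers against 6.79, 6.70 and 10.97 FPKM in WT livers. Nfe2l2, the factor NRF2, overlapped in FPKM, with a log2 fold change of 0.42 (SE 0.11; edgeR adjusted p = 0.102) with TMM and 0.11 with library totals. Onecut1, a hepatocyte and bile duct factor, spread widely within both groups, at 5.00, 4.08 and 1.19 FPKM in Prdx1 C52S livers against 27.7, 15.0 and 1.91 FPKM in WT livers. These ranges overlapped, with a log2 fold change of -1.83 (SE 0.92; edgeR adjusted p = 0.253) that was -0.86 without WT 6.

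Markers of several liver cell types moved with the groups, and their part in the carboxylesterase values was not tested. Of all genes tested, 11.5% were higher and 14.8% lower at an unadjusted p under 0.05. Pericentral hepatocyte markers were positive for 10 of 10 genes (5 higher at an unadjusted p under 0.05). They summed to 2989 to 3708 FPKM in Prdx1 C52S livers and 769 to 2520 FPKM in WT livers. Periportal markers summed to 1871 to 2061 FPKM in Prdx1 C52S livers and 2002 to 2163 FPKM in WT livers. Their directions were mixed, 7 of 10 positive and 3 negative, with 2 higher and 2 lower at an unadjusted p under 0.05. Cholangiocyte markers were negative for 10 of 10 genes (9 lower at an unadjusted p under 0.05), with 69.0 to 137 FPKM in Prdx1 C52S livers and 238 to 869 FPKM in WT livers, WT 8 highest. Macrophage markers summed to 380 to 409 FPKM in Prdx1 C52S livers and 518 to 736 FPKM in WT livers. Of their 10 log2 fold changes, 5 were positive and 5 negative, with 0 higher and 3 lower at an unadjusted p under 0.05. Lyz2, the largest part of the WT sum, had -1.06. The Kupffer cell marker Clec4f had 0.47 (SE 0.91). It overlapped, at 37.6, 45.7 and 29.3 FPKM in Prdx1 C52S livers against 44.8, 2.56 and 46.0 FPKM in WT livers, WT 8 lowest. Stellate cell markers summed to 61.5 to 79.0 FPKM in Prdx1 C52S livers and 86.5 to 137 FPKM in WT livers. Of these, 3 of 8 were positive (0.67 for Lrat) and 5 negative (-1.02 for Col1a1), with 0 higher and 3 lower at an unadjusted p under 0.05. Sinusoidal endothelial markers summed to 45.4 to 52.4 FPKM in Prdx1 C52S livers and 21.5 to 56.0 FPKM in WT livers, with WT 8 lowest. The adipocyte list, with 8 of 10 genes in the table, summed to 798 to 947 FPKM in Prdx1 C52S livers and 261 to 472 FPKM in WT livers. This came mostly from Car3, while Plin1 and Lep stayed at or below 0.0136 FPKM in every library. Of the 6 adipocyte genes tested, 3 were positive and 3 negative, with 3 higher and 1 lower at an unadjusted p under 0.05. Pancreatic acinar markers summed to 3.67 to 4.21 FPKM in Prdx1 C52S livers and 3.75 to 5.22 FPKM in WT livers, and kidney markers to at most 0.0879 FPKM in any library.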

How the data were processed

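Liver RNA of 6 samples was sequenced as pairs of 150-base reads. Per the submitters' processing notes, the tools included StringTie 1.3.4d, HISAT2 2.0.4, cutadapt 1.9 and UMI-tools, beside edgeR and DESeq2, whose roles are not given. Per the file headers, the authors deposited, for each library, a gene's FPKM and its estimated count. The estimated counts look worth about 4 per fragment, since 6204 values stand at 4, beside 3538 at 3 and 1965 at 5. How they were scaled is not given. At 4 per fragment, totals would amount to 15.1 to 19 M fragments. Counts of the members ran from 2337 to 132787. The build in those notes is mm9, whereas the members' coordinates are those of GENCODE M21 on GRCm38.

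Counts, rounded, entered edgeR 4.0.16 under R 4.3.3 (TMM factors, filterByExpr on the groups, robust quasi-likelihood F-test, two-sided, no covariate), with Benjamini-Hochberg adjustment over 18931 genes and a threshold of 0.05. DESeq2 1.42.0 and limma 3.58.1, other scalings, no filter, counts divided by 4 and leaving out each library were alternatives. FPKM was used for levels. The members and the gene lists were chosen with earlier results of these data known. Beyond the members, the text names other carboxylesterases with a mean of at least 1 FPKM, the 4 genes of smallest p in each other pathway list, and the gene nearest in profile to each member, plus genes that overlap a member or share its sequence; Pon1 was named after its values were seen. One item is not reported here.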

Additional observations from a re-analysis of the deposited data

How the results depend on the processing

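Under 15 alternatives, 150 values of the members were recomputed: 126 kept their direction and side of the threshold, 22 came to pass an adjusted p of 0.05 and 2 turned round, both of Ces3b (0.04 without Prdx1 C52S 1 and 0.76 without WT 6, against -0.50 without WT 8). Over all 15, Ces1g had log2 fold changes of 0.79 to 1.17 and adjusted p of 9.53e-09 to 0.273, and it passed in 6; Ces1d, Ces3a and Ces3b passed in 0. Of the other named genes, Prdx1 alone turned, to -0.01 with library totals.

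The count of genes past the threshold was 0 with edgeR, and 160 with library totals, 196 with no filter on low counts, 3122 with DESeq2, 2029 with voom and quality weights, 16 with limma on log2(FPKM + 1), 83 with counts divided by 4 and 0 to 897 when leaving out 1 library (897 without WT 8 and 132 without WT 9). Among the members, Ces1g alone passed with library totals, with no filter and with counts divided by 4 (1 in each), 7 passed with DESeq2, 6 with voom and 0 to 6 when leaving out 1 library (6 without WT 8). The members' median log2 fold change was 0.43 with library totals, and 0.54 without WT 8 to 0.99 without WT 6. The cause of these changes was not tested. No paired analysis was possible because the groups share no replicate number. With 3 libraries a group, common biological variation of 0.31 (0.245 without WT 8) limits which differences can pass.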
